A study of Homo sapiens and Mus musculus with 20 samples.

Results

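IKZF1, IKZF3 and CRBN form the drug response axis of multiple myeloma, and the chromatin over these 3 genes was read from lists of enriched regions made by chromatin immunoprecipitation sequencing (ChIP-seq). Every region was taken that overlapped the body of one of the genes or the 20 kb on either side of it, which gave 304 of the 805893 regions in 16 human lists. Of these, 228 lay at IKZF3, 69 at IKZF1 and 7 at CRBN.

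IKZF1 (Ikaros) and IKZF3 (Aiolos) are zinc-finger transcription factors of the lymphoid lineage that myeloma cells depend on. CRBN (cereblon) is the substrate receptor of the CUL4-DDB1-RBX1 ubiquitin ligase. Thalidomide and its analogues lenalidomide and pomalidomide bind cereblon and redirect the ligase to IKZF1 and IKZF3, whose loss lowers IRF4 and MYC. KDM6A (UTX) removes methyl groups from lysine 27 of histone H3 through its JmjC domain and also acts in the complexes that place H3K4me1, a mark of enhancers. H3K27ac marks active promoters and enhancers, and H3K27me3 marks chromatin repressed by Polycomb.

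The lists come from myeloma cell lines. ARP1 cells were KDM6A knockout (KO), carried a KDM6A whose demethylase domain was inactivated (JmjD-dead, H1146E in the sample titles), or were KDM6A wild type (WT). H3K27ac, H3K27me3 and input were profiled in all 3 genotypes and H3K4me1 in KO and WT cells. A KDM6A antibody was used on ARP1 KO cells, on KDM6A wild type KARPAS cells and on ARP1 WT cells, and an HA antibody on an HA-tagged ARP1 line and on ARP1 WT cells. The HA-tagged line has the genotype label knockout, and the labels do not say which tagged protein it carries. The H3K4me1 KO library carries a line code that no other KO library has, and the labels do not say whether the KO libraries come from 1 clone.

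Each group held 1 library, so no difference has a replicate check, no p-value is given, and a difference between genotypes cannot be told apart from a difference between libraries. Region calling used 5.03 to 37.4 M (mega) fragments or tags, apart from the inputs at 0.223 to 0.725 M, and each list held 11865 to 95729 regions for the antibodies and 2747 to 11190 for the inputs. As a check of the myeloma label, H3K27ac lay within 2.5 kb of 10 of 10 plasma cell genes in each genotype, of 3, 2 and 3 of 7 B cell genes in KO, JmjD-dead and WT cells, and of 0 of 5 myeloid genes in each. MS4A1, CD79B and CD22 had none in any genotype. H3K27ac also lay at 3 of 7 T cell genes in each genotype and at 3, 3 and 2 of 6 epithelial and stromal genes in KO, JmjD-dead and WT cells. In KARPAS the KDM6A list, the only list of that line, reached 7 of 10 plasma cell genes and 6 of 7 B cell genes. The plasma cell genes it did not reach were SDC1, IRF4 and SLAMF7, and the B cell gene was PAX5. It also reached 4 of 7 T cell genes, 1 of 5 myeloid genes and 1 of 6 epithelial and stromal genes. The share of all genes reached in this way is not given here, so these counts have no background.

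In GRCh38, IKZF1 (gene ID 10320) lies at chr7:50303455-50405101 and is transcribed toward higher coordinates, with the lncRNA LOC124901631 inside its body. IKZF3 (gene ID 22806) lies at chr17:39757715-39864312 and is transcribed toward lower coordinates, so its start is the high end, and its window also holds parts of GRB7 and ZPBP2 and the pseudogenes KRT8P34 and RPL39P4. CRBN (gene ID 51185) lies at chr3:3149633-3179717, is transcribed toward lower coordinates, and its far end overlaps TRNT1. Exons and introns were not used here, so a region is placed by its distance from the gene start.

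The RefSeq promoter table (GRCh38.p14) held entries for 2 of the 3 genes: 3 starts of IKZF1 and 2 overlapping starts of CRBN. The 3 IKZF1 starts, at 50304716, 50308700 and 50319048, lie inside the gene. None of them is the gene start at 50303455 from which distances are counted, and the sequence before that start is not shown. The 250 bases before each start are shown for the 3 IKZF1 starts and the upstream CRBN start, because the chromatin marks differ among them. Capitals mark GGGAA on either strand, the core bound by the Ikaros family, which occurs in 60.9% of 22153 promoters of the same length. A match describes letters in this window and is not a measured binding site.
IKZF1 start 1, chr7:50304466-50304715, plus strand: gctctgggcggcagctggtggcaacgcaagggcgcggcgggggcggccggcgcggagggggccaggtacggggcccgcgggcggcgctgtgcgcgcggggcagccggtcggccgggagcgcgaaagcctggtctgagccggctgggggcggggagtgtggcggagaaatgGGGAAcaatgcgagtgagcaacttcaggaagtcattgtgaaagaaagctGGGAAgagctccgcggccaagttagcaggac
IKZF1 start 2, chr7:50308450-50308699, plus strand: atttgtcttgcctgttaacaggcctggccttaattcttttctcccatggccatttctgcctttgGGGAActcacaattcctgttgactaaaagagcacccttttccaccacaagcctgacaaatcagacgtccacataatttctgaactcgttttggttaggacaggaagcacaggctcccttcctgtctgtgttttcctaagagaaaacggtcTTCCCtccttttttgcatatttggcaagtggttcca
IKZF1 start 3, chr7:50318798-50319047, plus strand: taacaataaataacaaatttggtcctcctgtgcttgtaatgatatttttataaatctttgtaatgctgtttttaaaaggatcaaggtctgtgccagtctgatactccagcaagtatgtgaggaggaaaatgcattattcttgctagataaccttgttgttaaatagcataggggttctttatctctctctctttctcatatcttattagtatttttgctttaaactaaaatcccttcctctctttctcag
CRBN, chr3:3179718-3179967, minus strand: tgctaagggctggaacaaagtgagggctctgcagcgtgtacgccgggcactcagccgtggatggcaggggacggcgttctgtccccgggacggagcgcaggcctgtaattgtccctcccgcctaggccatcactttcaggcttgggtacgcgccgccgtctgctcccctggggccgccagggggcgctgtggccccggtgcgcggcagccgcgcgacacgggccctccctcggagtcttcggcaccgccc

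IKZF1 starts 1 and 2 each held 2 GGGAA matches, and start 3 and the CRBN sequence held 0. Start 1 and CRBN were GC-rich, at 71.2% each against a median of 62% over all promoters, while start 2 had 45.2% and start 3 had 32.8%. H3K27ac covered all 250 bases of IKZF1 starts 1 and 2 in KO, JmjD-dead and WT cells. None of the 13 antibody lists had a region over start 3. Over the CRBN sequence H3K27ac covered 250 bases in KO cells, 0 in JmjD-dead cells and 0 in WT cells, and H3K4me1 covered 0 bases in KO cells and 232 in WT cells. KARPAS KDM6A covered 200 bases of IKZF1 start 2.

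IKZF3 was among the genes with the most H3K27ac in ARP1 cells of every genotype. Its H3K27ac regions covered 64053 bp in KO cells, 69257 bp in JmjD-dead cells and 62490 bp in WT cells, in 39, 25 and 23 regions. By covered length this placed IKZF3 17th in KO, 5th in JmjD-dead and 11th in WT cells among 19970 protein-coding genes, and by the share of the window covered 152nd, 71st and 104th. Per length, H3K27ac covered 43.7% of the IKZF3 window in KO, 47.2% in JmjD-dead and 42.6% in WT cells, against 8.05%, 8.11% and 8.85% of the IKZF1 window and 1.88%, 0.953% and 0.802% of the CRBN window. The order IKZF3, IKZF1, CRBN was thus the same in the 3 genotypes.

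**Figure D1:**
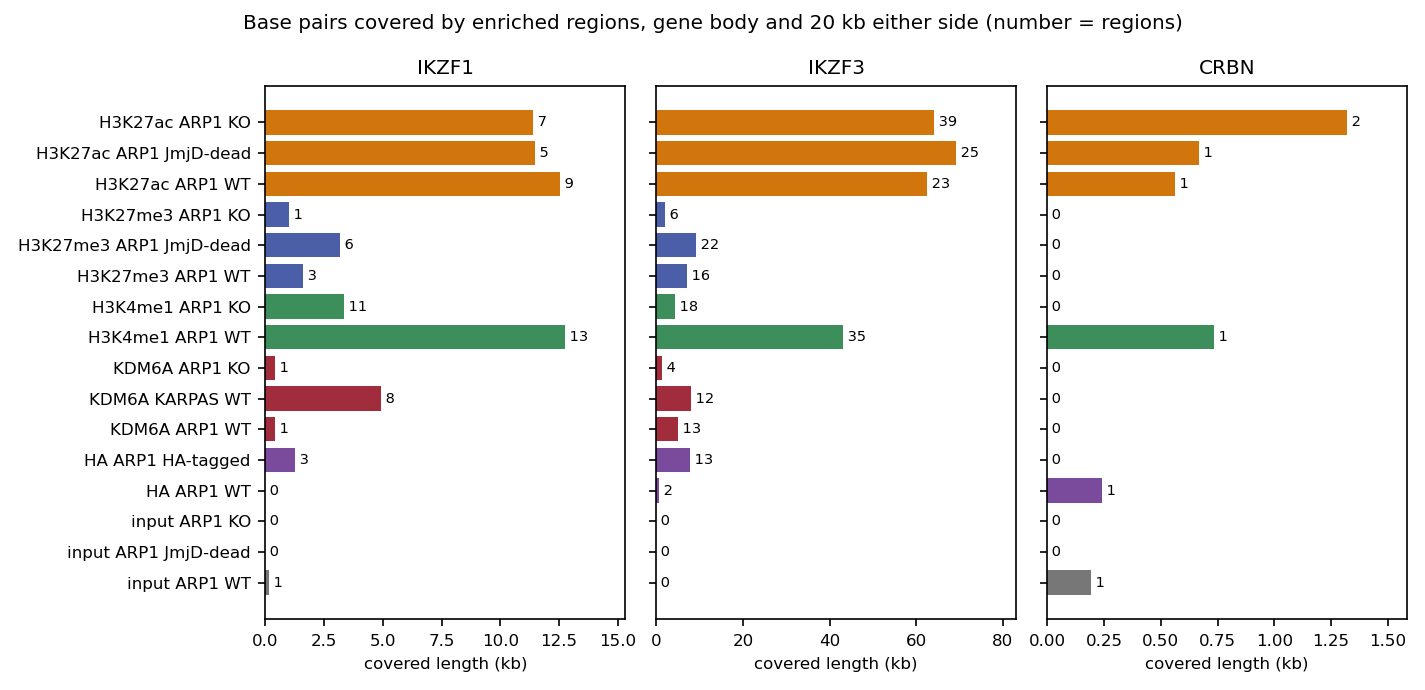
Covered length (kb, horizontal axis, a separate linear scale for each gene) of the enriched regions at IKZF1, IKZF3 and CRBN in each of the 16 lists (rows), 1 library each; the number at each bar is the count of regions. IKZF3 carries 62.5 to 69.3 kb of H3K27ac in the 3 ARP1 genotypes, and the CRBN window has no H3K27me3 or KDM6A region in any list.

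The longest WT stretch of H3K27ac at IKZF3 lay over its start. It spanned 11844 bp in KO cells (chr17:39857268-39869111), 11964 bp in JmjD-dead cells (chr17:39858101-39870064) and 11413 bp in WT cells (chr17:39858131-39869543), and reached the neighbouring ZPBP2. Its −log10 q, the caller's measure of enrichment over an even genome, was 436 in KO, 612 in JmjD-dead and 648 in WT cells, and it ranked 309th of 76242, 187th of 74063 and 199th of 69127 regions. A −log10 q grows with depth and ranks come from lists of different lengths, so neither is read as a change between libraries.

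Behind the start, H3K27ac stood in separate blocks along the gene. A block 11.5 kb from the start had a −log10 q of 225 in KO, 280 in JmjD-dead and 370 in WT cells. At 20.5 kb the values were 126, 185 and 175 in the same order, and at 69.1 kb they were 115, 236 and 213. The block nearest to the gene's end, 111 kb from the start, had 270 in KO, 431 in JmjD-dead and 341 in WT cells. All of these blocks were listed in all 3 genotypes. KO cells split some of them: the WT regions at chr17:39765824-39773598 and chr17:39773865-39782737 were overlapped by 3 and 4 KO regions, while 1 JmjD-dead region, chr17:39765307-39781593, bridged them with 16287 bp and was the longest H3K27ac region at IKZF3 in any genotype.

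**Figure D2:**
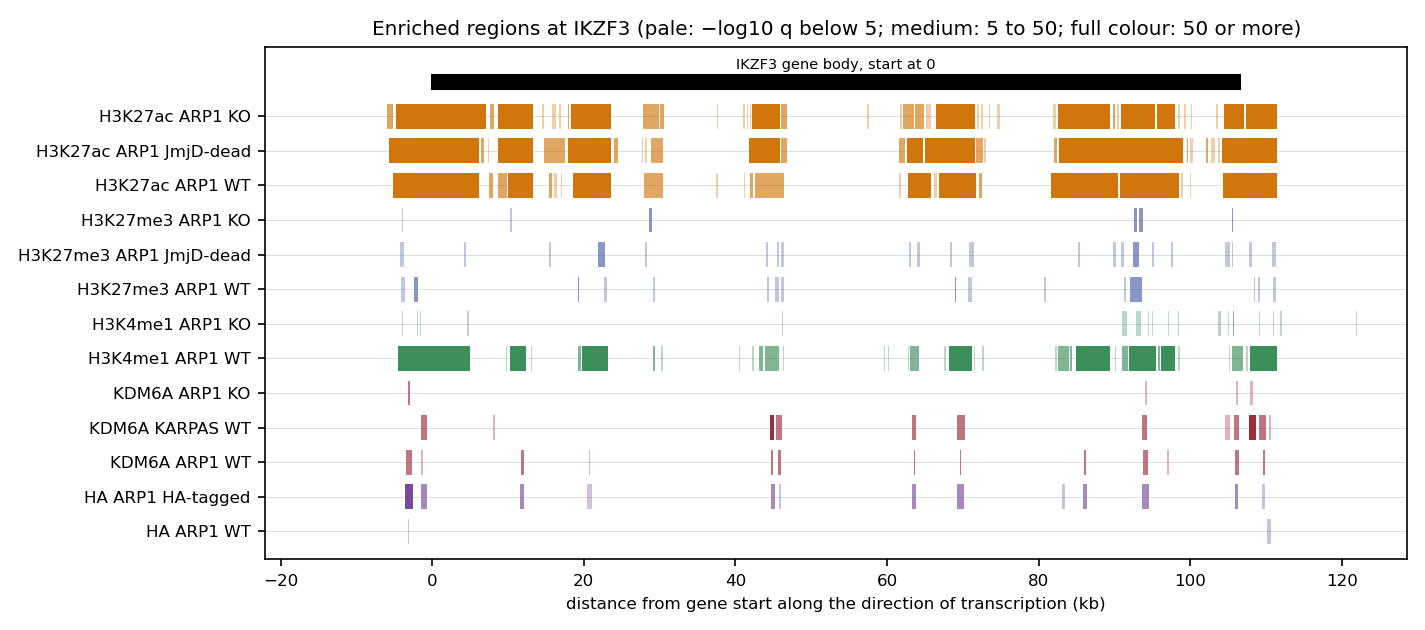
Enriched regions in the IKZF3 window by list (rows), against distance from the gene start (kb, direction of transcription to the right); darker boxes have a higher −log10 q. The H3K27ac blocks stand at the same distances in KO, JmjD-dead and WT cells, and the sites of the KARPAS, ARP1 WT and HA-tagged lists all overlap H3K27ac of WT cells.

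IKZF1 carried H3K27ac mainly in 1 region at its start, of 9391 bp in KO cells (chr7:50303416-50312806), 9774 bp in JmjD-dead cells (chr7:50303426-50313199) and 9310 bp in WT cells (chr7:50303497-50312806). Its −log10 q was 163 in KO, 202 in JmjD-dead and 192 in WT cells. In all, 11399 bp in 7 regions were covered in KO, 11494 bp in 5 regions in JmjD-dead and 12541 bp in 9 regions in WT cells.

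Inside the gene the remaining IKZF1 regions were under 1000 bp. A pair at 28.3 to 29 kb from the start was listed in each genotype, with a best −log10 q of 16.2 in KO, 31.8 in JmjD-dead and 14.7 in WT cells. At 65.4 kb a WT region of 978 bp (−log10 q of 5.63) was overlapped by a KO region of 312 bp (2.19) and by no JmjD-dead region. At 90.2 kb the values were 6.48 in KO, 6.99 in JmjD-dead and 19.3 in WT cells. An upstream region 21.2 kb before the start entered the window in KO cells (2530 bp, −log10 q of 97.8) and WT cells (2263 bp, 102), while in JmjD-dead cells the region there ended 204 bp outside it with a −log10 q of 68.7. Its absence from the JmjD-dead count is therefore set by the window's edge.

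At CRBN the H3K27ac region at the start was small in every genotype. It spanned 1250 bp in KO cells (chr3:3178867-3180116), 668 bp in JmjD-dead cells (chr3:3178987-3179654) and 562 bp in WT cells (chr3:3179129-3179690). Its −log10 q was 27.6 in KO, 11.0 in JmjD-dead and 15.8 in WT cells. The KO region reached past the gene start into the promoter sequence shown above, and the JmjD-dead and WT regions ended inside the gene. KO cells had a second region of 201 bp, 50.1 kb from the start and inside TRNT1. The window's edge cut it, and 70 bp of it were counted in the 1320 bp covered in KO cells.

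**Figure D3:**
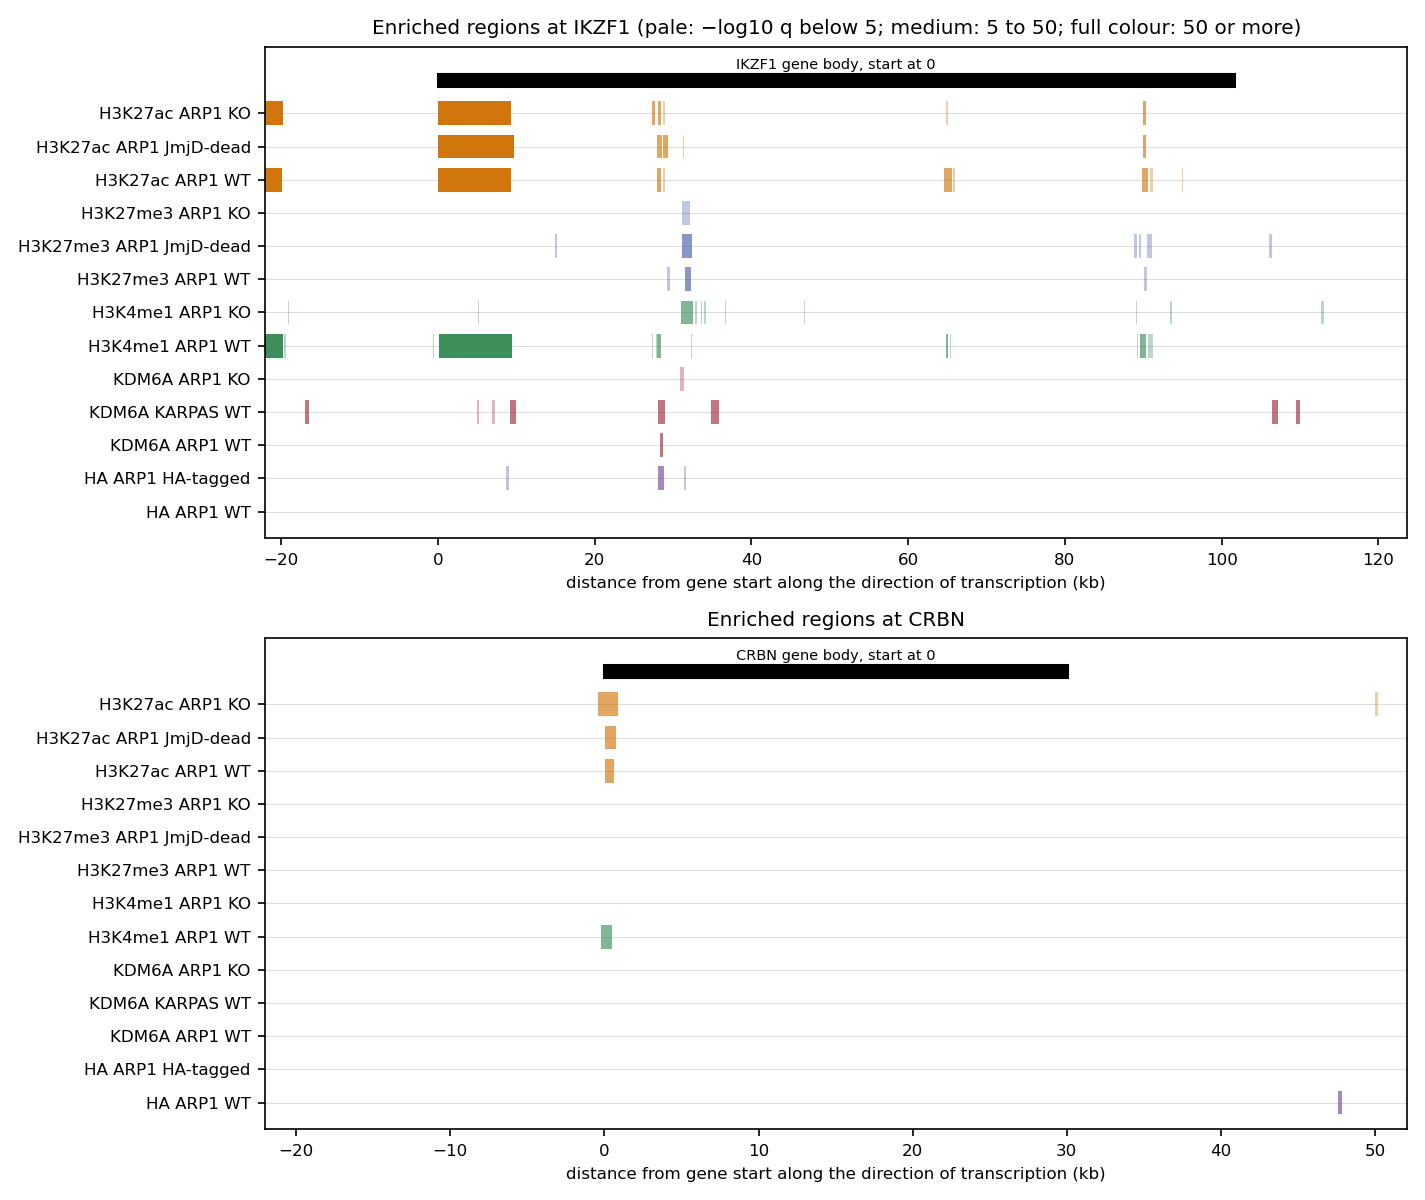
Enriched regions in the IKZF1 window (top) and the CRBN window (bottom) by list (rows), against distance from the gene start (kb, direction of transcription to the right); darker boxes have a higher −log10 q. IKZF1 has 1 H3K27ac region of 9.31 to 9.77 kb at its start in each genotype, and CRBN has 1 short region there.

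To set genotypes side by side, covered lengths were divided, and a gene with at least 500 bp in either list was called past a 1.5-fold ratio. In H3K27ac, KO over WT was 0.909 for IKZF1 and 1.03 for IKZF3, neither called, and 2.35 for CRBN, called higher. Among 15527 genes tested, 13.9% were called higher and 6.48% lower, with a median ratio of 1.11. The CRBN ratio rests on 1320 bp in KO cells against 562 bp in WT cells, and with 50 kb either side it was 1.26 and not called. JmjD-dead over WT was 0.917, 1.11 and 1.19 for IKZF1, IKZF3 and CRBN, none called, where 5.87% of 15248 genes were called higher and 7.29% lower around a median of 0.987. Both comparisons use the same WT library. The whole H3K27ac lists covered 73.6 Mb in KO, 69.9 Mb in JmjD-dead and 71.0 Mb in WT cells.

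Single H3K27ac regions were mostly shared. Of the 48 KO regions at the 3 genes, 11 overlapped no WT region, against 35.2% of the whole KO list, and 5 of the 33 WT regions overlapped no KO region, against 30.1%. Of the 31 JmjD-dead regions, 10 overlapped no WT region (29.1% of the list), and 7 of the 33 WT regions overlapped no JmjD-dead region (27.7%). At IKZF3, 21 of 23 WT regions were met by KO regions and 20 by JmjD-dead regions, counting an overlap of 1 bp. With 50% overlap, 7 of the 23 had no KO partner, against 33.2% of the whole WT list. At that setting 4 had no JmjD-dead partner, against 30.5%. H3K27ac covered 43.7% of this window in KO and 47.2% in JmjD-dead cells, so an overlap of 1 bp is frequent here.

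H3K27me3 was listed at IKZF3 and IKZF1 and nowhere at CRBN. At IKZF3 it covered 2039 bp in 6 regions in KO, 9201 bp in 22 regions in JmjD-dead and 7046 bp in 16 regions in WT cells. At IKZF1 it covered 990 bp in 1 region in KO, 3164 bp in 6 regions in JmjD-dead and 1582 bp in 3 regions in WT cells. By covered length IKZF3 was 391st in KO, 140th in JmjD-dead and 68th in WT cells of 19970 genes. The best H3K27me3 region at IKZF3 had a −log10 q of 7.85 in KO, 9.44 in JmjD-dead and 8.99 in WT cells, where the median region of the lists had 4.14, 3.0 and 3.66. The libraries had 6.60, 10.4 and 5.03 M fragments in KO, JmjD-dead and WT cells.

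Most of them overlapped H3K27ac of the same genotype, the active mark. At IKZF3 this held for 6 of 6 H3K27me3 regions in KO, 22 of 22 in JmjD-dead and 15 of 16 in WT cells, against 70.8%, 50.6% and 64.4% of the whole lists. H3K27ac covered 43.7%, 47.2% and 42.6% of the IKZF3 window in the same order. A region placed anywhere in this window would thus often meet H3K27ac, and the whole lists are an unlike comparison. At IKZF1 it held for 0 of 1, 1 of 6 and 1 of 3. The H3K27me3 that all 3 genotypes shared at IKZF1 lay apart from the H3K27ac blocks, at chr7:50334577-50335566 in KO, chr7:50334631-50335940 in JmjD-dead and chr7:50334950-50335765 in WT cells, with −log10 q of 4.14, 8.24 and 7.56; a 145 bp JmjD-dead H3K27ac region touched it. The same stretch held the best H3K4me1 region of IKZF1 in KO cells (chr7:50334413-50335963, −log10 q of 16.6), the sole KDM6A antibody region of IKZF1 in KO cells (chr7:50334378-50334799, 2.27) and a weak HA-tagged region (chr7:50334862-50335140, 2.33).

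In H3K27me3, KO over WT was 0.289 for IKZF3 and 0.626 for IKZF1, both called lower, as were 51.7% of 4342 genes, with a median of 0.824 and a whole-list ratio of 0.778. The IKZF3 ratio was above 12.8% and the IKZF1 ratio above 39.7% of the genes covered in both. IKZF3 was called lower in each alternative run, at 0.289 to 0.620, while the IKZF1 call ended with scaling by whole-list length (0.805), with lists of equal length (0.837) and with a fold of 2. With regions of −log10 q of at least 5 no IKZF1 region was left in KO. JmjD-dead over WT was 2.00 for IKZF1, called higher, and 1.31 for IKZF3, not called, where 74.7% of 6972 genes were called higher and 9.62% lower, with a median of 2.15 and a whole-list ratio of 2.66; the IKZF1 and IKZF3 ratios were above 45.6% and 24.6% of genes. With the covered lengths divided by those of the whole lists, the JmjD-dead ratio was 0.751 for IKZF1 and 0.490 for IKZF3, so the call at IKZF1 ended and IKZF3 turned to lower, and with regions of −log10 q of at least 5 IKZF3 was at 0.675. Of the regions, 3 of 7 in KO had no WT partner (63.1% of the list) and 16 of 19 in WT had no KO partner (74.8%), while 17 of 28 in JmjD-dead had no WT partner (79.6%) and 8 of 19 in WT had no JmjD-dead partner (52.4%).

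**Figure D4:**
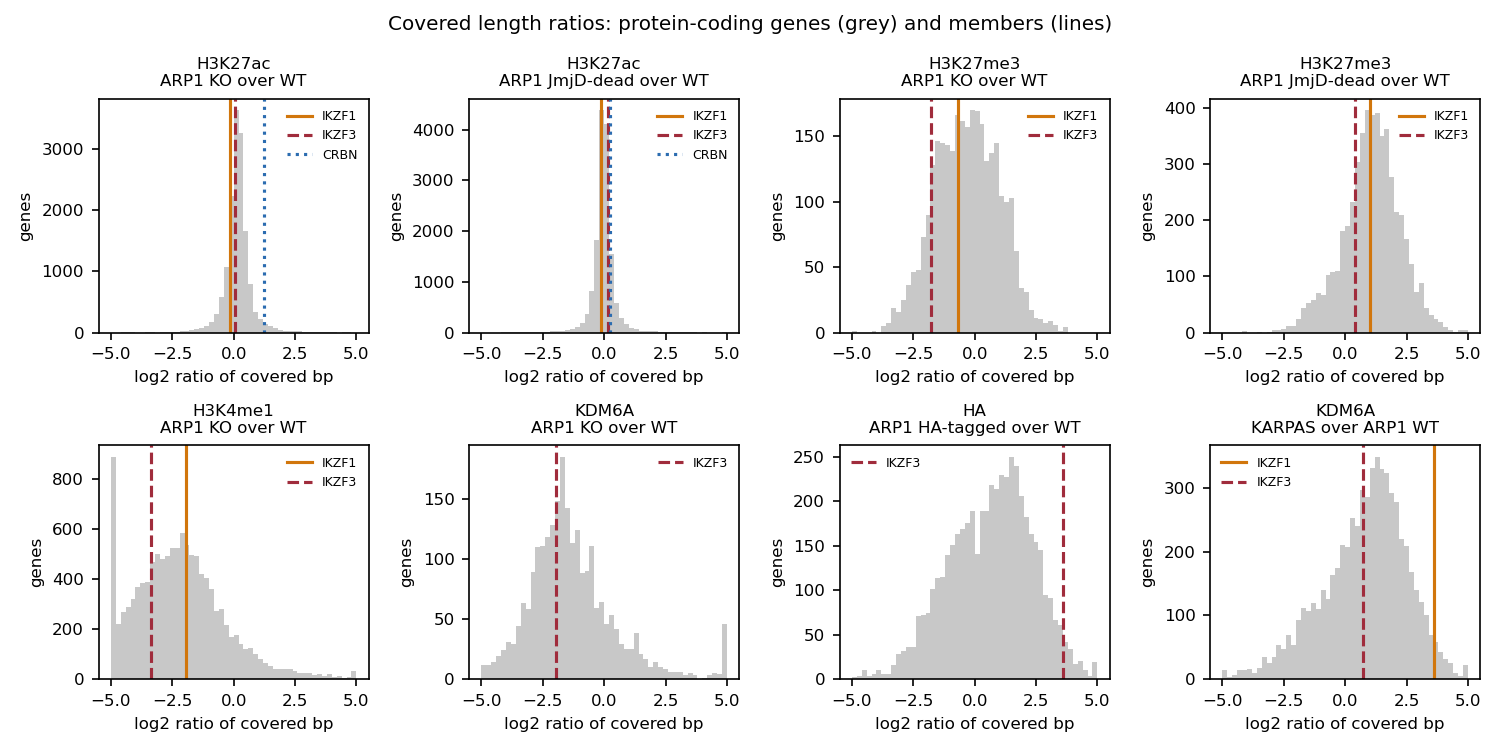
Distribution over protein-coding genes (grey, number of genes) of the log2 ratio of covered length in 8 comparisons, among genes covered in both lists, with the members as vertical lines; ratios beyond 5 on the log2 scale are drawn in the outer bins, and a member with no line had no ratio. IKZF3 stands at −3.35 in H3K4me1 KO over WT and at 3.58 in HA-tagged over WT.

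Of the 4 comparisons of KO over WT, H3K4me1 had the lowest ratios at IKZF1, IKZF3 and CRBN among those that could be formed (KDM6A gave one for IKZF3 alone, and H3K27me3 none for CRBN). At IKZF3 it covered 4242 bp in 18 regions in KO cells and 43199 bp in 35 regions in WT cells. At IKZF1 it covered 3352 bp in 11 regions in KO cells and 12759 bp in 13 regions in WT cells. At CRBN it covered 0 bp in KO cells and 732 bp in WT cells. In WT cells the mark lay on the H3K27ac blocks: over the IKZF3 start (−log10 q of 239), past the gene's end (chr17:39752902-39756413, 253), just inside the IKZF1 start (chr7:50303594-50312960, 152) and over the CRBN start (chr3:3179218-3179949, 36.6).

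In KO cells little of this was listed. Over the H3K27ac region at the IKZF1 start, H3K4me1 covered 122 bp in KO cells and 9213 bp in WT cells, and over that at the IKZF3 start 830 bp in KO cells and 9559 bp in WT cells. The ratio of KO over WT was 0.0982 for IKZF3 and 0.263 for IKZF1, and CRBN was listed at 0 in KO. With scaling by whole-list length the ratios were 0.186 for IKZF3 and 0.498 for IKZF1, and with regions of −log10 q of at least 5 they were 0.00502 and 0.139. The background was of the same direction: 85.6% of 16038 genes were called lower and 7.8% higher, the median ratio was 0.201, and the IKZF1 and IKZF3 values stood above 59.4% and 28.0% of all genes covered in both. The KO list covered 37.9 Mb from 25.6 M fragments and the WT list 71.8 Mb from 34.0 M. Over the whole lists the mean fold enrichment was 5.02 in KO and 10.0 in WT. Of all regions, 27.2% in KO and 59.8% in WT lay on H3K27ac regions. The 2 libraries thus differed in enrichment as a whole, and the cause was not tested. The caller's headers give both H3K4me1 libraries a redundant rate of 0, where those of H3K27ac and H3K27me3 have 0.36 to 0.46, and the headers do not say whether duplicates had been removed earlier. Of 29 KO regions at the 3 genes 11 had no WT partner (69.2% of the list), and of 49 WT regions 37 had no KO partner (75.3%).

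Within the windows, KDM6A was listed at IKZF3 and IKZF1 and not at CRBN. Regions outside the CRBN window are given at the end. With the KDM6A antibody, IKZF3 had 1274 bp in 4 regions in ARP1 KO cells, 8039 bp in 12 regions in KARPAS cells and 4918 bp in 13 regions in ARP1 WT cells. IKZF1 had 422 bp in 1 region in KO, 4919 bp in 8 regions in KARPAS and 405 bp in 1 region in ARP1 WT cells. The HA antibody gave 7737 bp in 13 regions at IKZF3 in the HA-tagged line and 647 bp in 2 regions in WT cells, and 1247 bp in 3 regions at IKZF1 in the HA-tagged line and 0 bp in WT cells. At CRBN the HA-tagged line had 0 bp, and WT cells had 1 region of 242 bp, 47.7 kb from the start and inside TRNT1.

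The background of these antibodies was large. The KDM6A antibody list of KO cells held 44936 regions, against 90964 in WT cells, and 65.2% of the KO regions lay on WT regions. The HA antibody list held 54338 regions in the HA-tagged line and 78725 in untagged WT cells. A region in 1 list is therefore set beside both of these control lists below.

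At IKZF1 a single site was in the KARPAS, ARP1 WT and HA-tagged lists and in neither the KDM6A KO nor the HA WT list. It lay at chr7:50331771-50332175 in ARP1 WT cells, 28.5 kb inside the gene, with a −log10 q of 30.9 and rank 2531 of 90964. It was listed in KARPAS at 46.6 (chr7:50331559-50332373) and in the HA-tagged line at 11.9 (chr7:50331601-50332291), and it was absent from KDM6A in KO cells and from HA in WT cells. It overlapped the pair of H3K27ac regions at that distance in all 3 ARP1 genotypes. It was 1 of 10 IKZF1 sites after merging overlapping regions of the 3 lists; of the others, 7 were in the KARPAS list alone and 2 in the HA-tagged list alone.

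At IKZF3 the 3 lists merged into 18 sites, of which 8 were in all 3 and 12 in at least 2, and all 18 lay on H3K27ac of WT cells. That mark covered 42.6% of this window in WT cells, so an overlap with it is frequent here. Of the 13 KDM6A regions in ARP1 WT cells, 12 lay on HA-tagged regions (35.4% of the whole list), 8 on KARPAS regions (19.7%), 3 on KO regions (30.6%), 1 on a WT HA region (55.0%) and 13 on WT H3K27ac (24.0%). Regions on both other lists and on neither control list numbered 6 of 13 at IKZF3 and 1 of 1 at IKZF1, where 3.95% of the 90964 WT regions were of this kind. In the KARPAS list they were 6 of 12 and 1 of 8 (6.24% of that list), and in the HA-tagged list 6 of 13 and 1 of 3 (6.38%). These counts across lists rest on the same few places, since the sites are shared.

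Single IKZF3 sites differed between the lists. The site 44.9 kb from the start, chr17:39819147-39819741, had a −log10 q of 65.3 in KARPAS, 27.9 in ARP1 WT and 10.9 in the HA-tagged line, and none in either control list. The site 69.7 kb from the start had 41.5 in KARPAS, 6.09 in ARP1 WT and 19.5 in the HA-tagged line, again with none in the control lists. The site 11.8 kb from the start had 16.7 in ARP1 WT and 8.91 in the HA-tagged line and was not in the KARPAS list.

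The highest HA value did not belong to a site free of background. The site upstream of the start, chr17:39866890-39867946, had 50.9 in the HA-tagged line and 1.54 in WT cells, and with the KDM6A antibody 6.35 in KO and 18.0 in WT cells. Likewise, the sites at 94.1 and 106 kb had 3.0 and 3.78 with the KDM6A antibody in KO cells, against 11.7 and 18.0 in WT cells.

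**Figure D5:**
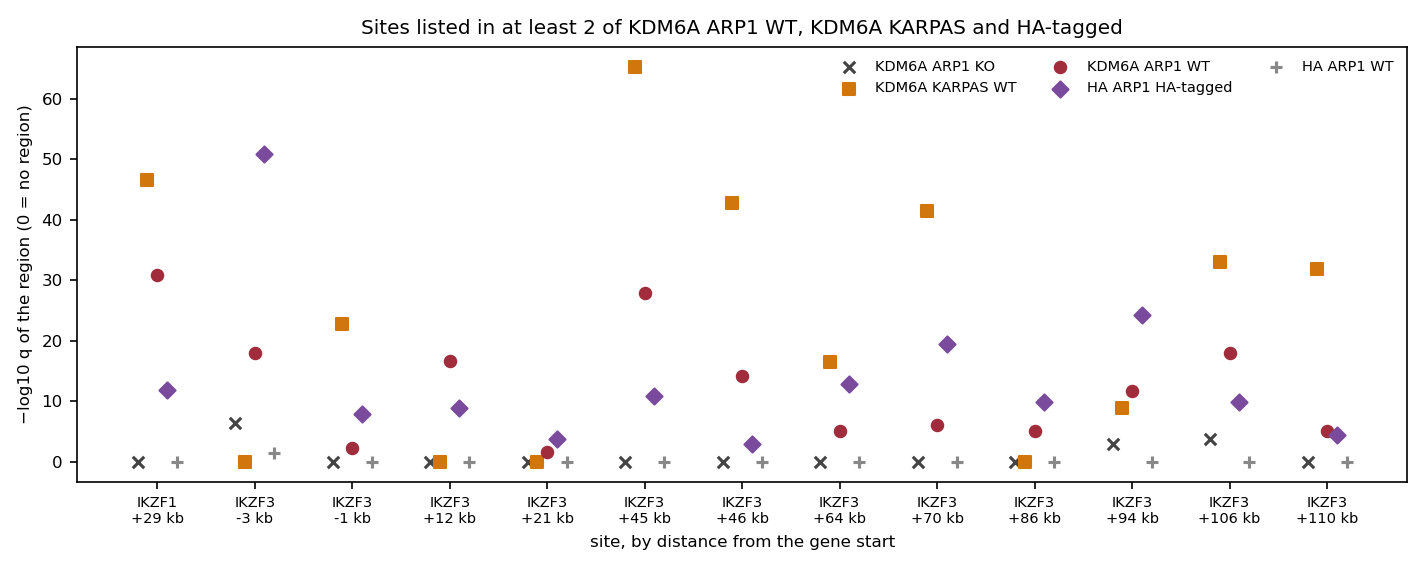
−log10 q (vertical axis; 0 means no region listed) in the 3 KDM6A and 2 HA lists at the 13 sites (horizontal axis, distance from the gene start in kb, negative upstream) listed in at least 2 of KARPAS, ARP1 WT and HA-tagged. The IKZF1 site at 28.5 kb and the IKZF3 site at 44.9 kb have no KDM6A KO or HA WT region, while 3 IKZF3 sites have a KO region.

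The ratios over all genes give the scale for these values. KDM6A in KO over WT was 0.259 for IKZF3, called lower, as were 85.3% of the genes tested, while 7.99% were called higher, with a median of 0.336 and a whole-list ratio of 0.518. IKZF1 was under 500 bp in both. The IKZF3 ratio was 0.0838 with regions of −log10 q of at least 5, 0.167 with 0 kb and 0.501 with scaling. HA-tagged over WT was 12.0 for IKZF3, and IKZF1 was listed at 0 in WT; both were called higher, as were 64.1% of genes, while 23.8% were called lower, with a median of 1.74 and a whole-list ratio of 0.679. The IKZF3 ratio was above 97.0% of all genes covered in both HA lists. It was 18.9 with lists of equal length and 17.6 with scaling. This ratio rests on 647 bp in 2 WT regions, with −log10 q of 4.61 and 1.54 and 0 bp in the gene body. With regions of −log10 q of at least 5, or with 0 kb, no WT base pair was left and no ratio could be formed. The HA libraries also differed in depth, 25.3 M tags in the HA-tagged line against 16.6 M in WT cells. KARPAS over ARP1 WT was 12.1 for IKZF1 and 1.63 for IKZF3, both called higher, as were 68.9% of genes, while 19.7% were called lower, with a median of 2.03 and a whole-list ratio of 0.569; the IKZF1 ratio was above 96.9% of genes and the IKZF3 ratio above 42.5%. The IKZF1 ratio was 4.95 with 50 kb, 7.76 with 0 kb and 21.4 with scaling, and the IKZF3 call ended with 0 kb (1.40) and a fold of 2 and stood at 2.87 with scaling. The KARPAS and KO ratios share the ARP1 WT library, and the KARPAS line also differed in depth, 37.4 M tags against 11.9 M.

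By single regions, 2 of 5 KDM6A regions in KO had no WT partner (34.8% of the list) and 11 of 14 in WT had no KO partner (69.4%). In HA, 15 of 16 regions in the HA-tagged line had no WT partner, against 51.8% of that list, and 2 of 3 in WT had no HA-tagged partner, against 69.7%. In KARPAS, 11 of 20 had no ARP1 WT partner (66.3%), and 5 of 14 in ARP1 WT had no KARPAS partner (80.3%). The input lists had no region at the 3 genes in KO and JmjD-dead cells, and 163 bp at IKZF1 and 194 bp at CRBN in WT cells, each with a pileup of 2.

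Other genes of the axis, 30 in all, took in the ligase subunits and its partners, further substrates of the drug-bound ligase and genes downstream. In H3K27ac of KO over WT, 4 of 30 were called higher and 2 lower, against 13.9% and 6.48% of all genes, with a median of 1.11 in both. The higher ones were GLUL, glutamine synthetase, at 3.13 (832 bp in KO and 266 bp in WT cells), BSG (CD147, a partner of CRBN) at 1.60, IKZF2 (Helios) at 1.52 and RNF166 at 1.51; the lower ones were IKZF5 (Pegasus) at 0.627 and RUNX3 at 0.631. In JmjD-dead over WT GLUL was called higher at 6.64, where 5.87% of all genes were, and none lower, with a median of 0.978 against 0.987.

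H3K4me1 of KO over WT was called lower at 28 of 30, against 85.6% of all genes, and higher at 0, with a median of 0.183 against 0.201 over all genes; AMBRA1 was at 0.0680, ARID2 at 0.174, the ligase subunits DDB1 at 0.182 and RBX1 at 0.207, RUNX3 at 0.187 and IRF4 at 0.230. H3K27me3 of KO over WT was called lower at 3 of 9 tested (WIZ 0.222, AMBRA1 0.0771, RUNX3 at 0 bp in KO) against 51.7% of all genes, with a median of 0.793 against 0.824. That of JmjD-dead over WT was higher at 9 and lower at 1 of 15, against 74.7% and 9.62% of all genes, with a median of 1.51 against 2.15. The higher genes in JmjD-dead cells included ZNF692 (5.23), the ligase scaffold CUL4A (3.45), IKZF4 (Eos, 3.23), UBE2M (3.17) and IRF4 (1.51), and the lower one was RNF166 (0.532). KDM6A of KO over WT was lower at 7 of 9, against 85.3% of all genes, and the 7 were listed at 0 bp in KO, among them the translation termination factor GSPT1 (2535 bp in WT), IRF4 (2092 bp in WT) and AMBRA1 (1473 bp in WT). HA-tagged over WT was higher at 13 and lower at 8 of 23, against 64.1% and 23.8% of all genes, with a median of 1.74 in both; MYC was at 0.199, GSPT1 at 0.314 and IRF4 at 0.362, while the ubiquitin-conjugating enzymes UBE2G1 and UBE2D3 were at 6.30 and 2.26, AMBRA1 was at 6.78 and IKZF3 at 12.0. KARPAS over ARP1 WT was higher at 14 and lower at 2 of 18, against 68.9% and 19.7% of all genes, with a median of 1.87 against 2.03. There CUL4A was at 4.80, RNF166 at 4.62, UBE2G1 at 4.06, ZFP91 at 3.39, RUNX3 at 1.87 and IRF4 at 1.56.

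The genes whose covered length ranked most like that of each member over the 13 antibody lists were found by the mean absolute difference of percentiles among all genes. For IKZF3 they were UBASH3B (0.815 percentile points), ARHGEF18 (1.15) and STK24 (1.17), against a median gene at 49.9. For IKZF1 they were MGAT3 (3.07), NELFCD (3.76) and VDR (3.95), against 41.5. For CRBN they were the neighbours MROH7 and TTC4 (1.10 each) and ZNF287 (1.36), against 21.8. The lists share cell lines and libraries, so these distances are descriptions.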

How the data were processed

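Regions were called by the authors with MACS on 1 library per group, with no control, no local background and a q-value threshold of 0.05, per the file headers, which name version 2.2.7.1 for H3K27ac, H3K27me3 and input and 2.1.1.20160309 for the rest. The submitters' processing notes list Trimmomatic, FastQC, MultiQC, Bowtie2, MACS2 2.1.2 and GRCh38. Per the file headers, the deposited values are the pileup signal, the fold enrichment (a ratio), the −log10 p-value and the −log10 q-value. H3K27ac, H3K27me3, H3K4me1 and input were paired-end; KDM6A and HA were single-end with tags extended to 200 bp.

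Rows with the same coordinates were merged into 1 region. Covered bp were summed within 20 kb of 19970 protein-coding genes (RefSeq, GRCh38.p14; IKZF3's strand is background knowledge), and ratios were called past 1.5-fold with at least 500 bp in either list. Regions sharing 1 bp were partners. No member window lay in a 1 Mb bin with over 10 times the median number of regions. Members, gene lists, markers and tests were chosen with earlier results of these data known. IKZF1, IKZF3 and CRBN are always named; the 30 genes of the axis are named where past the fold, at most 6 per comparison by size of the ratio and with those above 500 bp in both lists first; 3 alike genes are named per member. Python 3.11.15, numpy 2.4.6, pandas 2.3.3 and matplotlib 3.10.9 were used, and 4 of 4 steps passed on simulated data. Alternatives were other windows (0, 10 and 50 kb), a fold of 2, lists of equal length, ratios scaled by whole-list length, 50% overlap, regions with −log10 q of at least 5, and leaving out regions on input regions, in dense bins or, for KDM6A, on the WT HA list. Mouse lists were not used here.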

Additional observations from a re-analysis of the deposited data

How the results depend on the processing

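No replicate could be left out, and no paired analysis was possible because each group holds 1 library. Leaving out regions on input regions or in dense 1 Mb bins changed none of 34 values. These runs could not have changed a value. No member window lay in a dense bin, and the input regions at IKZF1 and CRBN overlapped no antibody region. Of 152 other alternative values over 33 results, 124 kept their call or stayed within 1.5 times the count; a kept call can still have a moved ratio. A fold of 2 uses the same ratio, so it can only end a call. In H3K27me3 of JmjD-dead over WT, IKZF1 turned from higher to below 1 with lists of equal length (0.828) and with scaling by whole-list length (0.751), and fell under the fold with 50 kb (1.14); IKZF3 turned to lower with equal lengths (0.408) and scaling (0.490) and was called higher with 0 kb (1.54), and it was at 0.675, not called, with −log10 q of at least 5. In H3K27me3 of KO over WT, IKZF1 lost its call with equal lengths (0.837), scaling (0.805) and a fold of 2 (0.626). CRBN in H3K27ac of KO over WT lost its call with 50 kb (1.26). Where no ratio could be formed with 20 kb, a window of 50 kb gave one: KDM6A of KO over WT was called lower for IKZF1 (0.228) and CRBN (0, as no base pair was listed in KO), and KARPAS over ARP1 WT was called higher for CRBN (1.63). IKZF3 in KARPAS over ARP1 WT lost its call with 0 kb (1.40) and a fold of 2 (1.63). Leaving out regions on the WT HA list, chosen after seeing the data, kept the KDM6A calls (IKZF3 0.230 in KO, 1.95 in KARPAS; IKZF1 12.1 in KARPAS).

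Regions without a partner fell in number when regions under a −log10 q of 5 were left out, as fewer were counted. The share of the whole list at that cutoff is in brackets. H3K27ac had 2 of 25 in KO (11.7%) and 1 of 21 in WT against KO (14.0%). It had 4 of 23 in JmjD-dead (16.5%) and 2 of 21 in WT against JmjD-dead (10.6%). H3K27me3 had 3 of 5 in WT against KO (34.4%). It had 0 of 3 in JmjD-dead (50.4%) and 3 of 5 in WT against JmjD-dead (14.7%). H3K4me1 had 0 of 2 in KO (52.4%) and 17 of 24 in WT (71.3%). KDM6A had 0 of 1 in KO (22.2%). HA had 9 of 10 in the HA-tagged line (53.9%) and 1 of 1 in WT (47.3%). KDM6A had 6 of 15 in KARPAS (67.0%) and 3 of 11 in ARP1 WT against KARPAS (71.9%). With 50% overlap, H3K27ac regions without a partner numbered 17 of 48 in KO (38.2% of the list) and 10 of 33 in WT against KO (33.2%). For the other changes the cause was not tested. The 19 H3K27me3 regions in WT came from 5.03 M fragments. IKZF1 and CRBN values under 1000 bp rest on 1 or 2 regions.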

Other observations

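IKZF1 had further regions just outside its window, listed here after their values were seen. A cluster centred 36 kb upstream of the start carried H3K27ac at chr7:50264156-50270023 in KO cells (−log10 q of 97.8), chr7:50265159-50269590 in JmjD-dead cells (75.1) and chr7:50264098-50269947 in WT cells (218). Inside it lay an HA-tagged region, chr7:50266671-50267554, with a −log10 q of 68.6 and rank 633 of 54338, above any HA region within the IKZF1 window. KDM6A was listed there in KARPAS (chr7:50266506-50267530, 41.5) and ARP1 WT cells (chr7:50266837-50267282, 7.13), with no region in KDM6A KO or HA WT cells.

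At 21.6 kb upstream, over the H3K27ac region cut by the window's edge, the HA-tagged line had a region with a −log10 q of 41.1 and WT HA one of 2.97; KDM6A had 89.6 in KARPAS and 4.13 in ARP1 WT cells. Downstream of IKZF1, H3K27ac at chr7:50446968-50451109 in KO cells had 182, the best JmjD-dead region there, chr7:50449184-50450944, had 159, and the best WT region, chr7:50447709-50450906, had 201. Outside the CRBN window, also listed after values were seen, ARP1 WT cells had KDM6A regions 22.1 and 38.1 kb upstream of the start. They lay at chr3:3201715-3202053 (−log10 q of 3.23) and chr3:3217728-3217947 (4.13). HA-tagged regions overlapped them, with 5.34 and 10.9. The KARPAS, KDM6A KO and HA WT lists had none there. None of these regions is assigned to IKZF1 or CRBN by any measurement here.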
